A study of Mus musculus with 6 samples.

Results

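Platelet glycoproteins and alpha granule genes are the genes that megakaryocytes, the marrow cells that shed platelets, use to build the platelet surface and the contents of its alpha granules. The 10 genes taken here were Pf4, Ppbp, Gp9, Gp1ba, Gp1bb, Gp5, Itga2b, Itgb3, Vwf and Treml1. A probe set was a member when the platform annotation gave it exactly 1 gene symbol and that symbol was one of the 10. This found 11 probe sets for 9 of the 10 genes, out of 45037 probe sets on the array other than controls. Gp1ba, which encodes the chain of the von Willebrand factor receptor that binds the ligand, had no such probe set and its level is not analysed here. All 11 probe sets lay above the filter on low signal, a mean log2 signal of 5.27, which kept 27022 probe sets for the test.

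The data are 6 Affymetrix arrays of C57BL/6J mouse bone marrow c-Kit+Sca-1+Lin- (KSL) cells, the gate of blood stem cells and early progenitors. Both groups were cultured for 7 days over a layer of human endothelial cells (HUVEC) in medium without serum, with a cocktail of mouse cytokines, and were sorted again by the same gate before RNA extraction. The mD1R group (3 arrays) received mD1R, a recombinant form of the Notch ligand Delta-like 1 that the study made to home to endothelium. The control group (3 arrays) received PBS. The labels call the arrays biological replicates without saying whether they came from separate animals, and each array is a bulk sample, so a change in the number of platelet-primed cells cannot be told apart from a change of RNA per cell. Of the genes of the gate, Kit had log2 signals of 11.37, 11.13 and 9.58 in mD1R arrays, against 9.97, 8.85 and 9.21 in PBS arrays. These groups overlapped and Kit did not pass the test below (limma adjusted p = 0.1085). Of 5 tested genes of the gate and its lineage markers 0 passed on the probe set of highest mean signal of each gene. By the same count 8.49% of all genes tested were called higher and 7.09% lower. Only Kit was above 0, against Ptprc at -0.34, Itgam at -0.33, Cd3e at -1.41 and Cd8a at -0.40 (log2 differences). A second Ptprc probe set fell by 1.89 on the log2 scale and passed (limma adjusted p = 0.0130). Second probe sets of Kit (1.41) and Cd8a (-0.68) did not pass. The lineage marker gene Itgam had 11.56 to 11.94 in mD1R arrays and 11.66 to 12.31 in PBS arrays. Ly6a, which encodes Sca-1, is not analysed here.

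Alpha granules carry chemokines, clotting proteins and adhesive ligands and release them when a platelet is activated. The glycoprotein Ib-IX-V complex tethers platelets to von Willebrand factor on injured vessel walls, and the integrin made of the Itga2b and Itgb3 chains then binds fibrinogen and links platelets to each other. Several of these genes are also read in early blood cells: Itga2b (CD41), Vwf and Pf4 are known to be transcribed in subsets of blood stem cells, and Itgb3 is also found on mast cells and macrophages. GATA, ETS and RUNX family transcription factors are known regulators of megakaryocyte genes.

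RefSeq promoter windows (build GRCm38.p6, from 250 bases before the annotated start to 50 after it) were at hand for 8 of the 10 genes. They were searched on both strands for the GATA letters (AGATAA, or else AGATAG, or else TGATAA, or else TGATAG), for the ETS letters (AGGAAG, or else CGGAAG) and for the RUNX letters (TGTGGT, or else TGCGGT). The 250 bases before the start are printed for Pf4 and Gp9, the members that passed the test below, for Gp5, which held the most GATA matches beside Gp1ba, and for Itga2b, the CD41 gene, with 2 ETS matches. Capitals mark GATA and ETS matches. The windows are Pf4 at chr5:90772185-90772434 (plus strand), Gp9 at chr6:87777820-87778069 (plus strand), Gp5 at chr16:30310782-30311031 (minus strand) and Itga2b at chr11:102469884-102470133 (minus strand), each written 5′ to 3′ on the strand of its gene.
Pf4: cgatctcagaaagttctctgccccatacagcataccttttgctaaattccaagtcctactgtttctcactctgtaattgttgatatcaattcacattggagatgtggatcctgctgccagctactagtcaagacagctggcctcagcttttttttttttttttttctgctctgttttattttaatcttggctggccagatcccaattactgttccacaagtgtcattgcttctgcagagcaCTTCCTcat
Gp9: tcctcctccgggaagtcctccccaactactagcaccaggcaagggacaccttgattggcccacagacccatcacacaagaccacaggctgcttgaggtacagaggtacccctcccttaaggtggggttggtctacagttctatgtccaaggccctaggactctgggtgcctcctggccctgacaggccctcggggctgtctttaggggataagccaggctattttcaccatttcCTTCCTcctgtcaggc
Gp5: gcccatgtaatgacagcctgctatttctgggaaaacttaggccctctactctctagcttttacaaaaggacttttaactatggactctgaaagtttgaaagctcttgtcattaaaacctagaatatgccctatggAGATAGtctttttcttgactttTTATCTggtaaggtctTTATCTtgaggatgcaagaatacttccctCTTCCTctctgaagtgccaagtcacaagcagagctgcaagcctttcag
Itga2b: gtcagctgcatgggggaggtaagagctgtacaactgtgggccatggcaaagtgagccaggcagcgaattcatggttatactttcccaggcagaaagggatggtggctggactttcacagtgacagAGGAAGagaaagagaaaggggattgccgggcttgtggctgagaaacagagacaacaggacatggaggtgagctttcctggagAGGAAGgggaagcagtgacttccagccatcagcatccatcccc

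An ETS match lay in 6 of the 8 member windows, against 46.5% of 32851 promoter windows in the RefSeq table. A GATA match lay in 4 of the 8, against 29.8% of all windows, and a RUNX match in 1, against 22.4%. In Pf4, Gp9 and Gp1ba the ETS match began 9, 16 and 16 bases before the start, in each case the AGGAAG letters on the opposite strand. Gp5 and Gp1ba held 3 GATA matches each, all before the start, whereas 7.77% of all windows held at least 2. The GATA match of Pf4 lay after the start, at base 37. The windows of Ppbp and Treml1 held none of these letters. A match is a description of the letters and not a binding site. The motif letters were chosen after the windows were seen, so the shares of all windows are no test of the members.

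**Figure D1:**
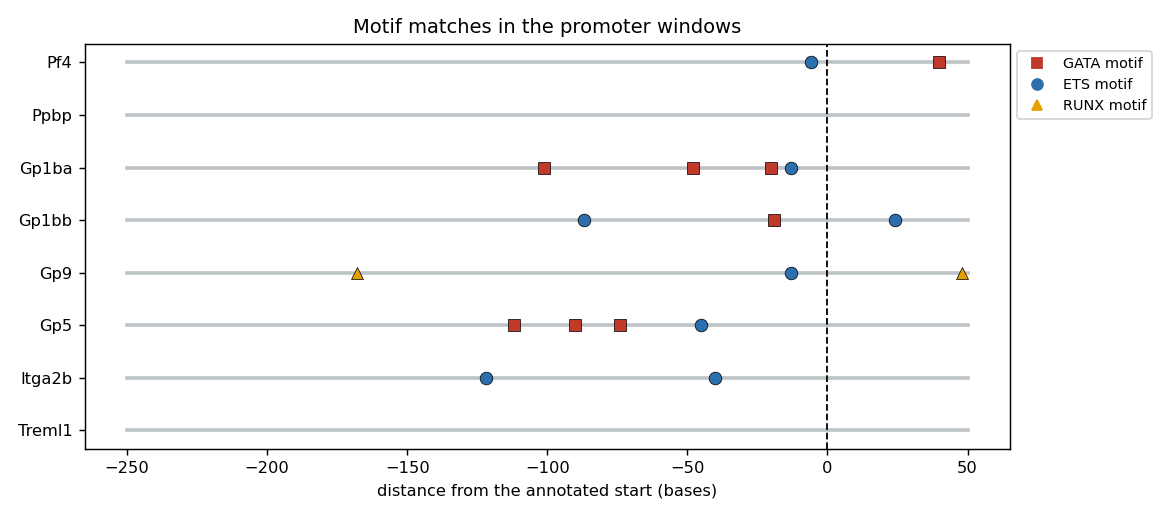
Positions of GATA (squares), ETS (circles) and RUNX (triangles) matches in the 8 promoter windows, with distance from the annotated start in bases on the x axis and 1 row per gene. The single ETS matches of Pf4, Gp9 and Gp1ba sit within 16 bases before the start.

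With mD1R, 2 of the 11 probe sets rose (Pf4 and Gp9) and 0 fell at adjusted p 0.05 (limma, Benjamini-Hochberg over all 27022 probe sets). Over all probe sets tested, 6.13% were called higher and 6.5% lower. All 11 log2 differences were above 0, against 50.3% of all probe sets (by gene, all 9 against 55.5%), and 7 of the 11 were at least 1, against 9.37%. Itgb3 probe set 1421511_at was kept by the filter of 5.27 through its mD1R mean of 5.63, since its PBS mean was 5.135. The sign of its difference is therefore tied to the filter. The median difference was 1.50 over the 11 probe sets and 0.005 over all. In 7 of the 11 every mD1R array lay above every PBS array, which was so for 17.3% of all probe sets. At an unadjusted p of 0.05, 6 of the 11 passed, all of them higher with mD1R, against 14.4% of all probe sets higher and 29.8% in either direction. The median standard error of a member's difference was 0.56, against 0.306 over all probe sets, and 9 of the 11 did not pass. The members were chosen with earlier results of these data known, so these contrasts with all probe sets are no test of the group.

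Pf4 encodes platelet factor 4, a CXC chemokine of the alpha granule. Its probe set 1448995_at had log2 signals of 14.65, 15.05 and 14.97 in mD1R arrays, against 12.50, 13.45 and 12.96 in PBS arrays. The groups did not overlap, and the lowest mD1R array lay 1.20 above the highest PBS array. Pf4 rose by 1.92 ± 0.26 (log2, SE, n = 3 each), a fold of 3.79 on the linear scale (limma adjusted p = 0.0109). The call was lost without PBS replicate 3, where 0 probe sets passed in limma and 5853 (21.7%) had an unadjusted p under 0.05, 6 of them members (Pf4 log2 difference 1.92, adjusted p = 0.0677).

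Ppbp encodes pro-platelet basic protein, the precursor of several CXC chemokines of the same granule, and is the neighbour of Pf4 in the RefSeq gene table. Probe set 1418480_at had 12.80, 13.43 and 13.78 in mD1R arrays, against 10.31, 12.61 and 12.21 in PBS arrays. Every mD1R array was above every PBS array, but PBS replicate 1 stood far below the other PBS arrays and the gap between the groups was 0.19. The difference was 1.63 ± 0.56 with a 95% interval from 0.34 to 2.92, and it did not pass (limma adjusted p = 0.0960). Without PBS replicate 1 it was 0.93.

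The other CXC chemokine genes that lie beside Pf4 and Ppbp on the chromosome are Cxcl5, Cxcl3, Cxcl15, Cxcl1 and Cxcl2, of which 4 were tested and Cxcl15 was not. Of the 4, 2 rose and 0 fell, where 8.49% of 12320 genes tested were called higher and 7.09% lower. Cxcl5, a neutrophil-attracting chemokine, had 9.95, 8.16 and 8.68 in mD1R arrays, against 5.54, 6.36 and 6.62 in PBS arrays, and rose by 2.76 ± 0.49 (limma adjusted p = 0.0159). Cxcl1 rose by 1.97 ± 0.37, and 2 further probe sets of it by 1.73 and 1.27. In both genes mD1R replicate 1 was the highest array, whereas for Pf4 and Ppbp it was the lowest of the mD1R arrays. Cxcl3 differed by 0.94 ± 0.33 and Cxcl2 by 0.33 ± 0.33, and neither passed.

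Gp9 encodes the small subunit glycoprotein IX of the Ib-IX-V complex, which is needed for the complex to reach the surface. Probe set 1419720_at had 8.94, 9.18 and 9.31 in mD1R arrays, against 6.97, 7.82 and 7.70 in PBS arrays. The groups were 1.11 apart at their nearest arrays. Gp9 rose by 1.64 ± 0.28, a fold of 3.12 (limma adjusted p = 0.0147). Its call was lost without mD1R replicate 2 (log2 difference 1.63, adjusted p = 0.0583) and without PBS replicate 3 (1.74, adjusted p = 0.0677).

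Gp5 encodes glycoprotein V, the subunit cleaved by thrombin. Probe set 1422817_at had 8.27, 9.38 and 10.09 in mD1R arrays, against 7.12, 8.94 and 8.33 in PBS arrays. The groups overlapped, since mD1R replicate 1 lay below PBS replicates 2 and 3. The difference was 1.12 ± 0.56, with a 95% interval from -0.18 to 2.42, and did not pass (limma adjusted p = 0.228). Leaving out PBS replicate 1 gave 0.61, leaving out mD1R replicate 3 gave 0.69 and leaving out mD1R replicate 1 gave 1.61.

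Gp1bb encodes the chain that is disulphide-linked to the Gp1ba product, and its 2 probe sets did not pass. Probe set 1422977_at had 6.98, 9.94 and 10.06 in mD1R arrays, against 7.29, 9.06 and 9.01 in PBS arrays, so replicate 1 of each group was about equally low and the others were high. Its difference was 0.54 ± 0.84 (limma adjusted p = 0.714) and the 95% interval ran from -1.41 to 2.49. The dimmer probe set 1456427_at had 6.46, 6.59 and 6.87 in mD1R arrays, against 5.82, 6.42 and 5.86 in PBS arrays, a difference of 0.61 ± 0.33 (limma adjusted p = 0.252) with every mD1R array above every PBS array by at least 0.04. A further probe set, 1452357_at, is annotated to both Septin5 and Gp1bb, which overlap in the RefSeq gene table, and was left out by the rule. It had 5.87, 7.13 and 10.10 in mD1R arrays, against 10.76, 12.13 and 11.92 in PBS arrays, a difference of -3.90 ± 0.95 (limma adjusted p = 0.0359) opposite in sign to both single-gene probe sets.

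Itga2b encodes integrin alpha IIb (CD41), the chain of the fibrinogen receptor found on cells committed to megakaryocytes and on some early progenitors. Probe set 1417758_at had 10.41, 11.83 and 12.34 in mD1R arrays, against 9.42, 10.32 and 9.84 in PBS arrays. The groups did not overlap, but mD1R replicate 1 was 0.09 above PBS replicate 2. The difference of 1.67 ± 0.47 (95% interval 0.58 to 2.76) missed the threshold (limma adjusted p = 0.0557). Without mD1R replicate 1 it was 2.23 and passed (adjusted p = 0.0203).

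Itgb3 encodes integrin beta 3, the partner of alpha IIb and also of alpha v. Its brighter probe set 1455257_at had 11.25, 11.68 and 12.01 in mD1R arrays, against 9.08, 10.83 and 10.52 in PBS arrays. All mD1R arrays lay above all PBS arrays, with PBS replicate 1 far below the other PBS arrays. The difference was 1.50 ± 0.44 (95% interval 0.49 to 2.52) and did not pass (limma adjusted p = 0.0608). It was 0.97 without PBS replicate 1. The dim probe set 1421511_at, just above the filter, had 2.91, 6.65 and 7.32 in mD1R arrays, against 5.71, 4.22 and 5.47 in PBS arrays. These groups overlapped, and the difference of 0.49 ± 1.09 (limma adjusted p = 0.804) had an interval from -2.01 to 3.00, so this probe set says little about Itgb3.

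Among 8 tested relatives of these chains, 3 rose and 0 fell, where 8.49% of all genes tested were called higher and 7.09% lower. They were Itgav, which pairs with beta 3 (0.86 ± 0.23), Itgb1, a common partner of many alpha chains (1.02 ± 0.19), and Itgb5 (1.57 ± 0.36). Not every probe set passed, since Itgav had others at 0.16, 0.15 and -0.80 and Itgb1 one at 0.25. Itga5 differed by 1.23 ± 0.40 and Itga6 by 0.81 ± 0.42, and neither passed.

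Vwf encodes von Willebrand factor, the adhesive ligand stored in alpha granules and in endothelial cells. Probe set 1435386_at had 9.86, 10.84 and 11.29 in mD1R arrays, against 7.00, 9.81 and 8.87 in PBS arrays. The lowest mD1R array was 0.05 above the highest PBS array, and the PBS arrays themselves spanned 2.81. The difference of 2.11 ± 0.68 was the largest of the 11 (95% interval 0.54 to 3.67) and did not pass (limma adjusted p = 0.0796). Without PBS replicate 1 it was 1.33.

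Treml1 encodes TLT-1, a receptor of the granule membrane that reaches the surface on activation. Probe set 1452630_at had 8.60, 9.64 and 10.58 in mD1R arrays, against 7.81, 9.52 and 9.09 in PBS arrays. The groups overlapped and the difference of 0.79 ± 0.57 (95% interval -0.52 to 2.11) did not pass (limma adjusted p = 0.395). Leaving out PBS replicate 1 gave 0.29, leaving out mD1R replicate 3 gave 0.31 and leaving out mD1R replicate 1 gave 1.30.

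**Figure D2:**
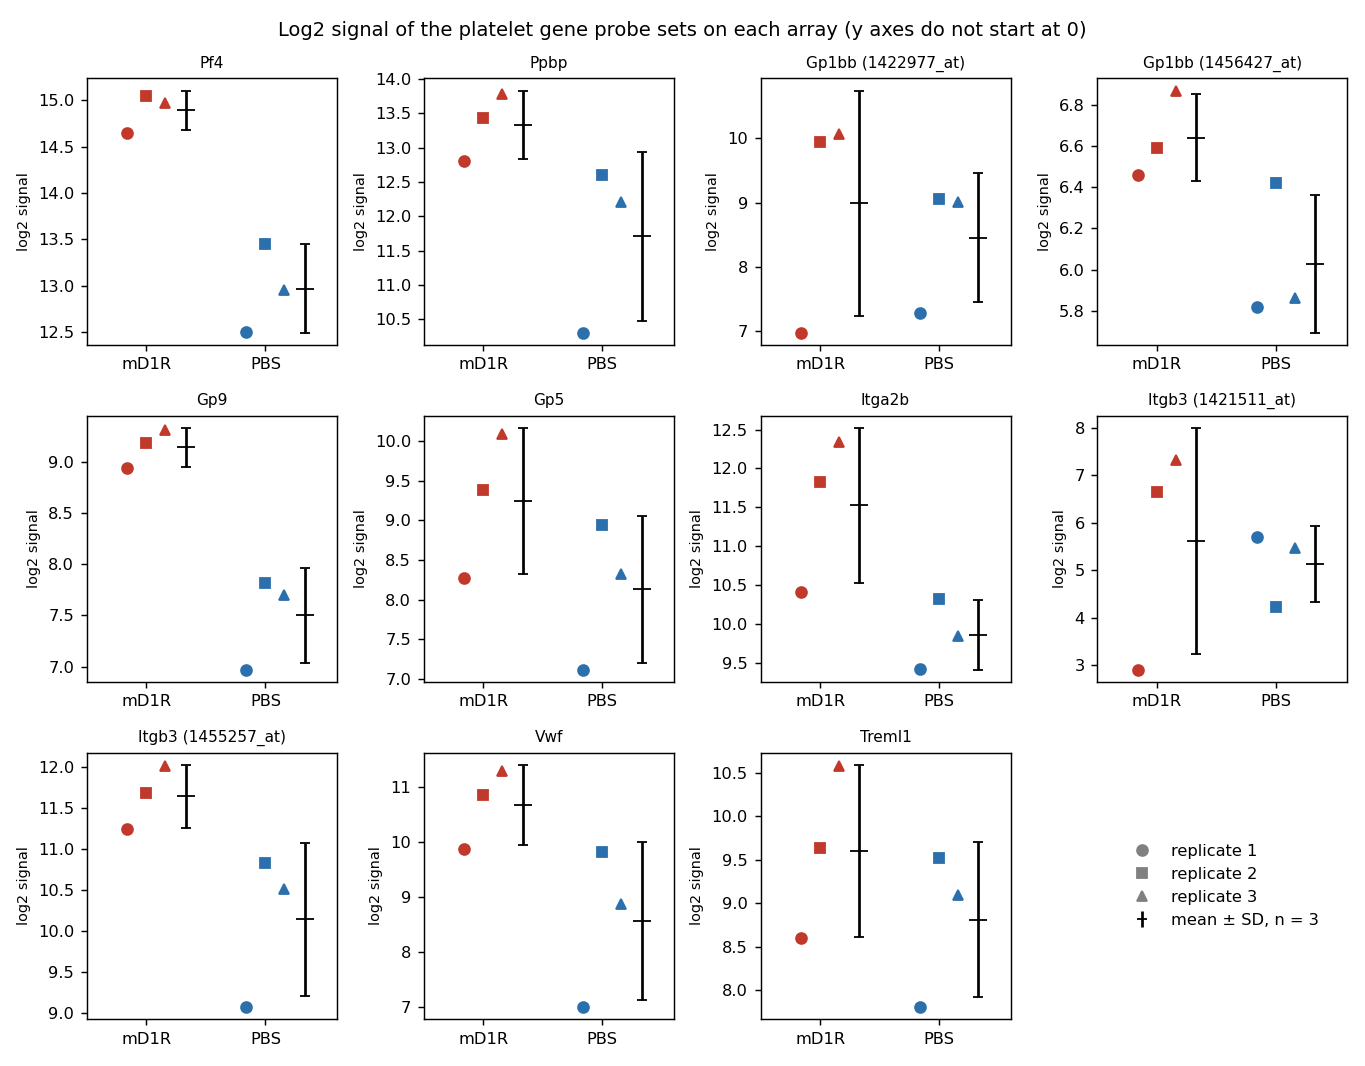
Log2 signal (y axis) of each of the 11 probe sets on the 3 mD1R arrays (red) and the 3 PBS arrays (blue), with the mean ± SD of each group in black and a marker shape per replicate number. The nearest arrays of the 2 groups are furthest apart for Pf4 and Gp9, and replicate 1 is the lowest array of both groups in every panel but that of the dim Itgb3 probe set.

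The probe sets moved together from array to array within each group. Replicate 1 was the lowest mD1R array in 11 of the 11 probe sets, against 31.6% of all probe sets, and replicate 3 the highest in 10, against 36.9%. Among PBS arrays, replicate 1 was the lowest in 10 of the 11, against 31.4% of all, and replicate 2 the highest in 10, against 25.6%. The exceptions were Pf4, with its highest value in mD1R replicate 2, and the dim Itgb3 probe set among the PBS arrays. The median deviation of the 11 probe sets from their means over the 6 arrays was 0.12, 0.91 and 1.34 in mD1R replicates 1, 2 and 3, against -1.43, 0.08 and -0.38 in PBS replicates 1, 2 and 3. Over all probe sets the array medians of this deviation lay between -0.05 and 0.11, with PBS replicate 1 at 0.11. MAS5 scales each array to the same trimmed mean of linear signal, which does not fix its log2 median (6.08 to 6.43 over the 6 arrays). An array-wide difference that this scaling took out cannot be seen in the medians of the deviation. Without PBS replicate 1, Pf4 and Gp9 were still the 2 that passed, where 2.69% of all probe sets were called higher. In 8 of the 11 probe sets the range within 1 group exceeded the difference between the groups.

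**Figure D3:**
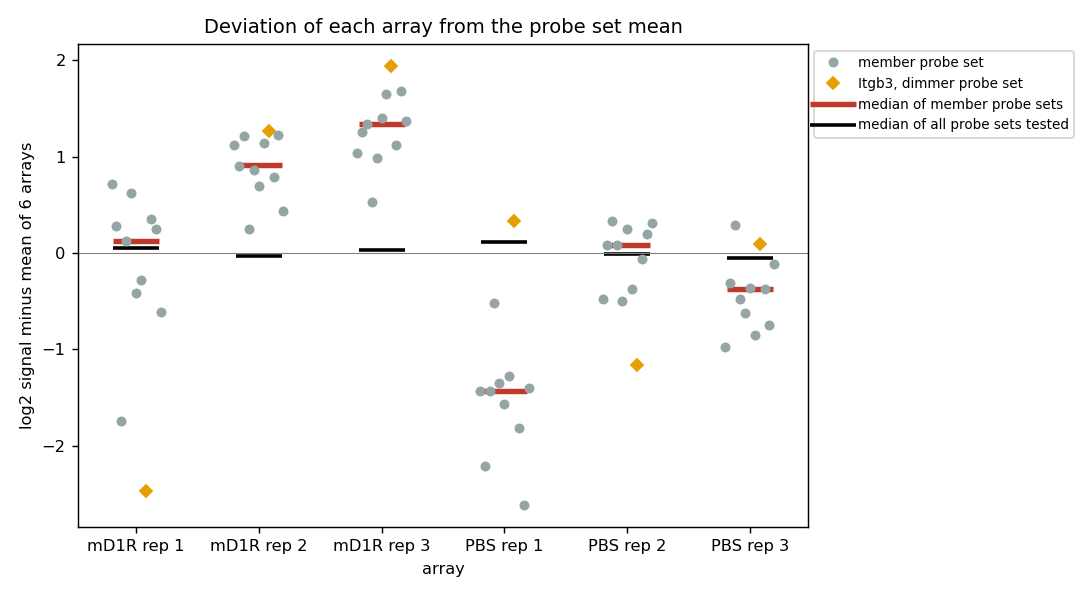
Log2 signal minus the probe set's mean over 6 arrays (y axis) for each member probe set on each array (points), with medians of the member probe sets (red bars) and of all probe sets tested (black bars). The member medians run from -1.43 in PBS replicate 1 to 1.34 in mD1R replicate 3, while the medians of all probe sets, taken after the scaling of each array, stay near 0.

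A hybridisation control on the arrays, BioB measured against the mean of BioC, BioD and cre, splits them into 2 sets (called spike-in batches), and the split crosses the groups. Batch 1 holds mD1R replicates 1 and 2 and PBS replicate 1, and batch 2 holds mD1R replicate 3 and PBS replicates 2 and 3. Each within-batch difference therefore rests on a single array of 1 group, and in batch 1 that array is PBS replicate 1, the lowest for most members. Pf4 differed by 2.35 in batch 1 and 1.77 in batch 2, Gp9 by 2.08 and 1.55, and Vwf by 3.35 and 1.95. Itga2b differed by 1.70 in batch 1 and 2.26 in batch 2. The dim Itgb3 probe set changed sign (-0.93 and 2.47), and the other 10 were above 0 in both batches. With the batch as a block in limma, 8 of the 11 rose, where 6.55% of all probe sets were called higher. Those added were Ppbp (adjusted p = 0.0157), Gp5 (0.0301), Itga2b (0.0227), the brighter Itgb3 probe set (0.0121), Vwf (0.0150) and Treml1 (0.0389).

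**Figure D4:**
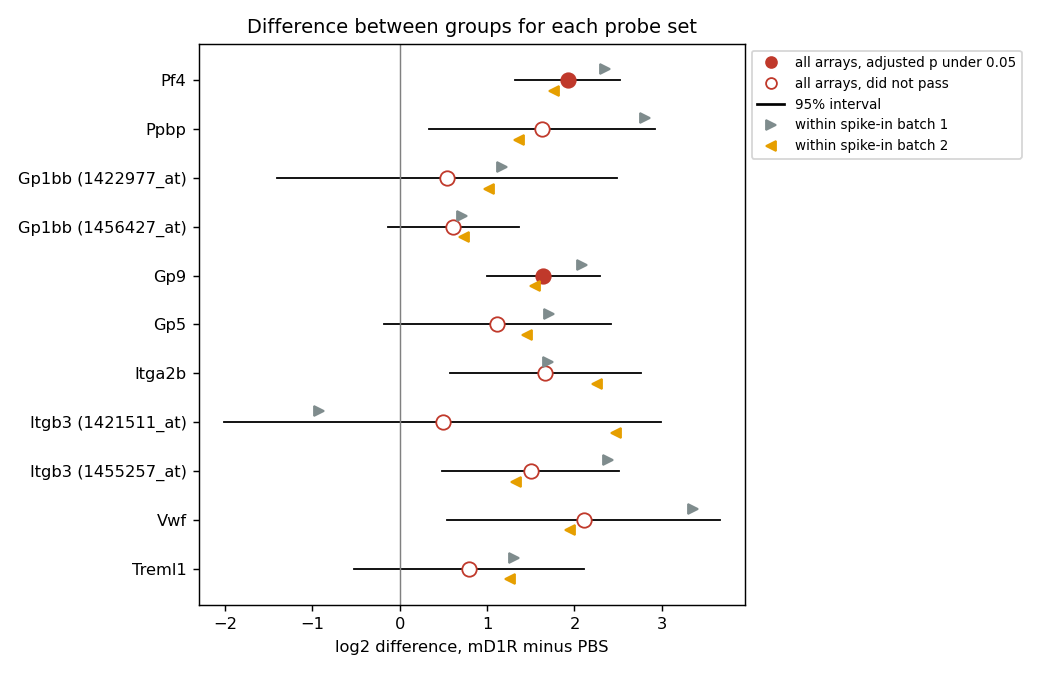
Log2 difference, mD1R minus PBS (x axis), for each of the 11 probe sets, with the 95% interval over all arrays (line, filled point where adjusted p was under 0.05) and the difference within spike-in batch 1 and 2 (triangles). All 11 points lie above 0, 2 of them past the threshold, and only the dim Itgb3 probe set has a within-batch value below 0. That probe set was kept by the filter on low signal through its mD1R mean.

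Other genes of the platelet and its precursor did not share a single direction. Of 108 further genes tested in 7 lists (granule cargo, granule biogenesis, receptors and signalling, megakaryocyte factors, cytoskeleton, integrin relatives and CXC chemokines), 18 rose and 10 fell, where 8.49% of all genes tested were called higher and 7.09% lower, the shares against which the count of each list stands. Among 14 granule cargo genes 2 rose and 1 fell, with a median difference of 0.50, against 0.09 over all genes tested. Ecm1, an extracellular matrix protein, rose by 2.24 ± 0.47, and the platelet-derived growth factor gene Pdgfb by 1.90 ± 0.28, although a second probe set of Pdgfb gave 0.46 and did not pass. F5, which encodes clotting factor V, had 6.66, 8.77 and 9.67 in mD1R arrays, against 11.46, 11.42 and 11.51 in PBS arrays, and fell by 3.10 on the log2 scale (limma adjusted p = 0.0239). Thbs1, which encodes thrombospondin 1, differed by 0.65 ± 0.55, and Selp, which encodes P-selectin of the granule membrane, by 0.36 ± 0.57 (0.60 and -0.44 on others of its probe sets). Neither passed, and PBS replicate 1 was the lowest PBS array for both, as for the members.

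Of 16 genes of granule biogenesis and secretion, 2 rose and 0 fell (median -0.05), counted on the probe set of highest mean signal of each gene. Rab27a, a relative of Rab27b, differed by -1.75 on that probe set and did not pass, but 2 others of its probe sets fell (log2 differences of -2.20 and -3.03, limma adjusted p = 0.0446 and 0.0489), and a further one differed by -0.14. Rab27b, a small GTPase of granule docking, had 10.71, 10.92 and 11.52 in mD1R arrays, against 7.70, 9.77 and 9.08 in PBS arrays, and rose by 2.20 ± 0.49, while its other probe sets (1.71, 1.71 and 0.43) did not pass. Slc18a2, which loads amines into the dense granules of platelets and into mast cell granules, rose by 2.34 ± 0.24. Nbeal2, needed for alpha granules to form, differed by -1.20 ± 0.39 and did not pass. Vps33b, which sorts alpha granule cargo, differed by 0.01 ± 0.23.

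Among 27 platelet receptor and signalling genes 5 rose and 1 fell, with a median of 0.41. Plek (pleckstrin) rose by 0.86 ± 0.19, the tetraspanin gene Cd9 by 0.86 ± 0.21, the adaptor gene Lat by 1.53 ± 0.25, the scavenger receptor gene Cd36 by 2.66 ± 0.68 (others of its probe sets gave 2.57 and 2.33 and did not pass) and Cd84 by 1.44 ± 0.19, although a second Cd84 probe set gave -0.10. Rasgrp2, which activates Rap1 ahead of the platelet integrin, had 7.70, 8.98 and 10.51 in mD1R arrays, against 11.37, 11.41 and 11.46 in PBS arrays, and fell by 2.35 on the log2 scale. Gp6, the collagen receptor gene, differed by 0.70 ± 0.51 and Clec1b, the podoplanin receptor gene, by 0.95 ± 0.27, and neither passed (limma adjusted p = 0.406 and 0.0579).

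Of 20 megakaryocyte transcription factor and signalling genes 3 rose and 3 fell (median 0.00), counted on the probe set of highest mean signal of each gene. Gata2, a factor of stem cells, megakaryocytes and mast cells, had 11.64, 12.23 and 12.84 in mD1R arrays, against 10.12, 10.19 and 9.73 in PBS arrays, and rose by 2.22 ± 0.30. Tal1 rose by 1.37 ± 0.22 and the kinase gene Jak2, which acts below cytokine receptors, by 1.14 ± 0.27 (a second Jak2 probe set gave 1.11 and did not pass). Srf, its cofactor gene Mrtfa and Cbfb, the partner of Runx1, fell by 0.76, 1.30 and 0.63 on the log2 scale, although a second Srf probe set gave 0.13 and did not pass. Runx1 differed by 0.63 on its counted probe set and did not pass. Other Runx1 probe sets rose by 0.89 and 1.02 (limma adjusted p = 0.041 and 0.024), while those at 0.08, 0.47 and -0.95 did not pass. Ets1 did not pass at -1.74 but fell on another probe set (-1.60, limma adjusted p = 0.0473). Gata1 (1.06 ± 0.38), the ETS factor gene Fli1 (-0.66 ± 0.21) and Nfe2 (-1.62 ± 0.67), a factor of late platelet genes, did not pass. Nfe2 had 9.58, 11.12 and 12.61 in mD1R arrays, against 12.12, 13.03 and 13.02 in PBS arrays.

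The cytoskeleton list had more falls than rises, with 5 of 19 genes lower and 1 higher (median -0.33), counted on the probe set of highest mean signal of each gene. Vcl (vinculin) fell by 1.98 (a second probe set gave -1.58 and did not pass), the filamin gene Flna by 1.84 and Was by 0.97 on the log2 scale, while Parvb (beta-parvin) rose by 1.48 ± 0.23. The remaining falls in this count were in Actn1 (-1.55 ± 0.27) and Zyx (-1.56 ± 0.38), each with a further probe set that did not pass (-0.91 and -1.10). Wdr1 and Tuba4a did not pass on the counted probe set (-0.78 and -0.66). Other Wdr1 probe sets fell (-0.93 and -0.80, limma adjusted p = 0.0152 and 0.0430). Another Tuba4a probe set also fell (-1.17, limma adjusted p = 0.0291), and a further one at -1.23 did not pass. Tubb1, the beta tubulin of megakaryocytes and platelets, had 7.91, 8.29 and 10.16 in mD1R arrays, against 7.42, 9.36 and 9.03 in PBS arrays, a difference of 0.18 ± 0.68 that did not pass.

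**Figure D5:**
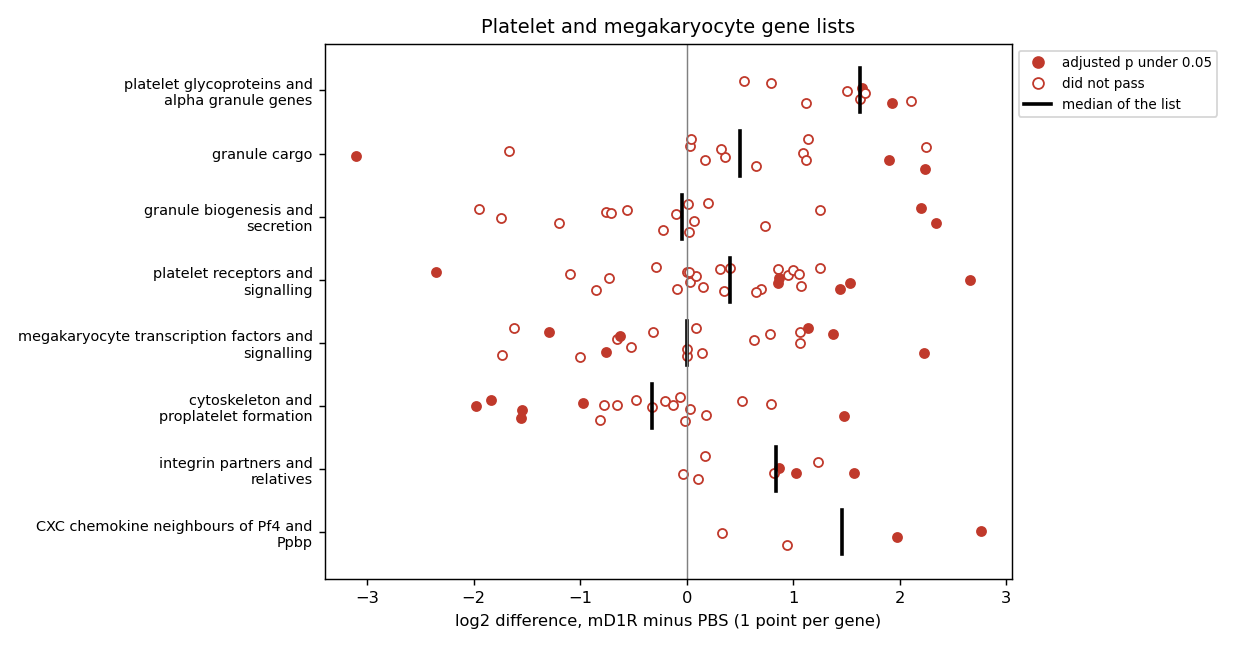
Log2 difference, mD1R minus PBS (x axis), of each tested gene in the platelet gene group and in 7 further lists, 1 point per gene, filled where adjusted p was under 0.05, with the median of each list as a black bar. All 9 member genes lie above 0, while the granule biogenesis, transcription factor and cytoskeleton lists hold values on both sides.

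The array order seen in the members was also present in part of these lists. PBS replicate 1 was the lowest PBS array for 22 of 27 receptor and signalling genes, 17 of 19 cytoskeleton genes and 13 of 16 granule biogenesis genes, but for 8 of 14 granule cargo genes, 3 of 8 integrin relatives, 3 of 4 CXC chemokine genes and 4 of 20 transcription factor genes, against 35.7% of all genes tested. Replicate 3 was the highest mD1R array for 18 of 27 receptor and signalling genes and for 14 of 20 transcription factor genes, but for 1 of 8 integrin relatives and 0 of 4 CXC chemokine genes, against 35.2% of all genes. It was the highest for 13 of 16 granule biogenesis, 12 of 19 cytoskeleton and 9 of 14 granule cargo genes.

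Markers of other cell types also differed between the arrays, and their part in the member differences was not tested. Mast cell and basophil markers rose in 9 of 12 genes (8.49% of all genes tested were called higher and 7.09% lower), with a summed linear signal of 86286 to 115597 in mD1R arrays and 21400 to 29141 in PBS arrays. Among them, Mcpt4 had a PBS mean of 3.39, below the filter on low signal, and was tested through its mD1R mean of 8.33. Tpsb2 was tested in the same way (means of 4.28 in PBS and 6.77 in mD1R arrays) and did not pass. Hdc went the other way (-1.34) and did not pass. Macrophage markers rose in 6 of 12 (91338 to 161388 in mD1R arrays and 51643 to 56790 in PBS arrays). Of 8 genes listed as blood stem cell markers 3 rose, Procr (3.01), Gata2 (2.22) and Cd34 (1.98), and 1 fell, Flt3 (-2.08). The other 4 did not pass, with Slamf1 (1.40) and Meis1 (1.07) above 0 and Hlf (-0.56) and Ctnnal1 (-0.48) below. A second Slamf1 probe set rose by 1.61 (limma adjusted p = 0.0326), and a second Ctnnal1 probe set was at 0.01. Sums over the 8 genes were 9489 to 14710 in mD1R arrays and 2654 to 3119 in PBS arrays. Gata2 is also a factor of mast cells, and which cells carried these signals was not tested. Of 7 endothelial markers, 1 rose, Pecam1, which platelets also carry (sums of 2254 to 3382 in mD1R arrays and 1186 to 1210 in PBS arrays), while Cdh5, Tek, Tie1, Emcn and Sox17 lay below the filter. Among 11 neutrophil markers 1 fell at the threshold, but only 1 had a difference above 0 and the median difference was -3.21. Their sums in mD1R arrays spread from 56368 in replicate 1 to 324148 in replicate 3, against 262068 to 328232 in PBS arrays. Of 5 erythroid markers 1 fell, Slc4a1, which was tested through its PBS mean of 9.21, since its mD1R mean of 3.49 lay below the filter. Sums of the erythroid markers were 3209 to 4650 in mD1R arrays and 3066 to 7040 in PBS arrays. No tested marker was listed at 0 on any array. The 3′ to 5′ log2 difference of the Actb controls, a measure of RNA quality, was 0.37 to 0.46 in mD1R arrays and 0.20 to 0.27 in PBS arrays, and that of Gapdh -0.41 to -0.26 in mD1R arrays and -0.48 to -0.33 in PBS arrays. On the first principal component of all kept probe sets (56.9% of the variance) mD1R replicate 3, the highest array for 10 of the 11 member probe sets, lay at 12.6, between the other mD1R arrays (108.4 and 93.6) and the PBS arrays (-79.4 to -64.5). Without mD1R replicate 3, Pf4 and Gp9 remained the 2 members that passed, at 1.88 and 1.56, where 9.34% of all probe sets were called higher.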

How the data were processed

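Gene expression was measured on 1 Affymetrix array per sample, 3 with mD1R and 3 with PBS. The deposited values are on a log2 scale, with 45101 probe sets including 64 controls. Per the submitters' processing notes MAS5 was used (version not given in the sources used here), and linear values under 1 are listed as log2 0. MAS5 scales each array on its own and makes low signals noisy, and detection calls were not used here. Gene symbols came from the platform annotation (34945 probe sets with 1 symbol), checked against RefSeq by Entrez ID.

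The mD1R and PBS arrays were compared by limma 3.58.1 (R 4.3.3; two-sided moderated test with a mean-variance trend, n = 3 each) after leaving out probe sets below the 40th percentile of mean signal. Benjamini-Hochberg adjustment ran over all 27022 probe sets, with a threshold of 0.05. In the lists a gene is its kept probe set of highest mean signal. The script was tested on simulated data. Precision is limited by having 3 arrays a group. Each p-value sets a difference against the spread between these arrays, moderated by the trend over all probe sets kept.

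Genes were named by rule: all member probe sets, up to 4 genes per list with the smallest p past the threshold, and a fixed set (Gata1, Fli1, Nfe2, Tubb1, Selp, Gp6, Clec1b, Thbs1, Kit). 1 further gene of the fixed set is not reported here. Rasgrp2, Cd36, Nbeal2, Vps33b, Srf, Cbfb, Actn1, Zyx, Cxcl3, Cxcl2, Itga5, Itga6, Pecam1, Rab27a and the Septin5 probe set were chosen after their values were seen. So were Ptprc, Itgam, Cd3e, Cd8a, Procr, Cd34, Flt3, Slamf1, Meis1, Hlf, Ctnnal1, Mcpt4, Tpsb2, Hdc, Slc4a1, Runx1, Ets1, Wdr1 and Tuba4a. The members and lists were chosen with earlier results of these data known, and the motifs after the windows were seen. The alternatives changed the scaling, pseudocount, filter, variance model, weights, blocks and threshold, or left out an array.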

Additional observations from a re-analysis of the deposited data

How the results depend on the processing

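Over 16 alternative settings that refit the test, Pf4 passed in 15 (log2 difference 1.69 to 2.16) and Gp9 in 14 (1.38 to 1.82). Itga2b passed in 5, Ppbp, Gp5, Vwf and the brighter Itgb3 probe set in 2 each, Treml1 in 1, and Gp1bb probe set 1422977_at in 0. Gp1bb probe set 1456427_at and the dim Itgb3 probe set passed in 0 of 15 settings, since the filter at the 60th percentile left them out. Differences below 0 were seen for Gp1bb probe set 1422977_at without PBS replicate 1 (-0.042, and up to 1.55 without mD1R replicate 1) and for Itgb3 probe set 1421511_at without mD1R replicate 2 (-0.02), without mD1R replicate 3 (-0.36, against 1.85 without mD1R replicate 1) and within spike-in batch 1 (-0.93).

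The member probe sets that rose numbered 2 over all arrays and between 0 and 3 when 1 array was left out: 0 without PBS replicate 3 (0% of all probe sets), 1 without mD1R replicate 2 (1.26%), 3 without mD1R replicate 1 (3.95%) and 2 in the other cases (1.21% to 9.34%). They were 8 when the spike-in batch was a block, 0 at adjusted p 0.01 (0.241% of all probe sets), and 6 at unadjusted p 0.05 with a 2-fold difference (8.03% of all higher, 8.59% lower), and none fell in any setting run. With the replicate number as a block 7 rose, where 8.56% of all probe sets were called higher, with Ppbp, Gp5, Itga2b, the brighter Itgb3 probe set and Vwf added. The numbers are not known to pair the arrays: same-numbered arrays had deviations from their group means that correlated at 0.313, 0.028 and 0.132, and mD1R replicate 2 matched PBS replicate 3 more closely (0.091).

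Over all probe sets, 1657 rose and 1756 fell, and leaving out 1 array gave 0 to 2523 rising and 0 to 3031 falling. Those counts were 1077 and 1136 with no variance trend, 3112 and 3396 with array weights, and 65 and 43 at adjusted p 0.01. Of the further platelet genes, 18 rose and 10 fell, with 0 to 20 rising and 0 to 24 falling when 1 array was left out. These were 11 and 6 with no variance trend, 23 and 23 with array weights, 21 and 21 with the replicate block, 1 and 0 at adjusted p 0.01, and 28 and 21 with every kept probe set counted. Counts without PBS replicate 3 were 0 for every list (unadjusted counts stand beside Pf4). The cause of these shifts was not tested. Scaling moved the median of all probe sets by at most 0.004. Dim probe sets such as 1421511_at are limited by signal near background.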
